A study of Mus musculus with 10 samples.

Results

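The mouse mitochondrial genome holds 37 genes, and all 37 were in the deposited expression table, out of 55359 genes in all. They were chosen by name, as the genes whose symbol begins with mt-, and they fall into 13 protein-coding genes (mRNA), 2 ribosomal RNA genes (rRNA) and 22 transfer RNA genes (tRNA). Their levels were compared between bone marrow cells depleted of mature lineages (Lin- cells) in 5 libraries labelled Dhx9f/f (WT) and 5 labelled Dhx9f/f;MX1 (cKO). Both groups carried the floxed Dhx9 alleles, and the cKO mice also carried MX1-Cre, a recombinase under an interferon-responsive promoter that is switched on in blood cells, and in other tissues, by injections of poly(I:C), an RNA mimic. The sources used here do not say whether the WT mice of these libraries received poly(I:C), nor give the age of the mice, and the mice of the study were of both sexes. The question the comparison puts is what changes in the RNA of these cells when DHX9, an RNA helicase of the nucleus, is deleted.

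Mitochondrial DNA is a small circle present in many copies per cell. Each of its strands, called heavy and light, is transcribed as one long RNA, which is then cut into separate rRNAs, tRNAs and mRNAs, in many places by removal of the tRNAs that lie between the other genes. The mRNAs encode subunits of complexes I, III, IV and V of the respiratory chain, the rRNAs form the core of the mitochondrial ribosome, and every protein needed for transcription, RNA processing and RNA decay is encoded in the nucleus and imported. Erythroid precursors, which make heme partly inside mitochondria, lose their mitochondria only late in maturation.

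The libraries held between 13841038 and 18713364 fragments, read from the steps between low values. Dhx9 itself went against the labels: it stood at 65.4 to 72.4 FPKM (fragments scaled to gene length and library size) in the libraries labelled WT and at 130.8 to 156.5 in those labelled cKO. The difference was 1.0 on the log2 scale (limma adjusted p = 1.39e-05), and a gene-level value does not show which exons were read. Groups are therefore named by their labels throughout. Xist, which marks female cells, was at 99.2 to 127.8 FPKM in the libraries labelled WT 3, WT 4 and WT 5 and at 0.0900 or less in the other 7, in which Ddx3y of the Y chromosome was at 19.7 to 38.5 FPKM. Every library labelled cKO thus had the male pattern. Of the erythroid markers tested, 23 of 24 were higher in cKO, and their summed level was 1995 to 3538 FPKM in WT against 5495 to 9015 in cKO. All 12 monocyte and dendritic markers were lower, as were 7 of 8 stem and progenitor markers, 4 of 10 of neutrophils, 2 of 5 of B cells, 3 of 6 of T and NK cells, 5 of 5 of megakaryocytes and 4 of 4 of mast cells and basophils, where 28.3% of all genes tested were called lower and 16.7% higher. Of the 6 neutrophil markers not called, some had positive differences, chosen here after their values were seen: Ltf with 1.39, Ngp with 1.43 and Camp with 0.98 on the log2 scale (limma adjusted p = 0.271, 0.318 and 0.396). Ngp was at 317.6 FPKM in cKO 1 against 2.41 to 66.4 in the other cKO libraries and 4.59 to 19.7 in WT. No gene of these lists was at 0 in all libraries. These markers moved between the same groups as every difference given below, and their part in those was not tested. In bulk samples, fewer cells of a type and less RNA per cell cannot be told apart.

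The mouse nuclear genome holds copies of mitochondrial DNA, and a read that matches both places cannot be given to either. In the GRCm39 reference, the build of the table, chr1:24650616-24655269 matched the mitochondrial stretch from base 6390 to base 11042 with 99.9% identity, with 2 mismatches and 1 gap over 4654 aligned bases. Beyond it, 129 bases at chr2:69185882-69186010 and 365 bases at chr12:97028202-97028566 matched with at least 99.7% identity. To show what this means for a read, 60-base windows of 3 mRNA genes are given beside a matching nuclear sequence, which need not be the nearest. They are in the direction of the mitochondrial gene, with the bases that differ in capitals. The window of mt-Co2 (chrM:7213-7272) and its copy on chromosome 1 (chr1:24654387-24654446, minus strand) had no difference, that of mt-Co1 (chrM:5528-5587) and its copy on chromosome 2 (chr2:22479400-22479459, minus strand) had 1, and that of mt-Cytb (chrM:14345-14404) and its copy on chromosome 4 (chr4:79922426-79922485, plus strand) had 3.
mt-Co2: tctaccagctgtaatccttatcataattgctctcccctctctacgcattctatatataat
copy of mt-Co2: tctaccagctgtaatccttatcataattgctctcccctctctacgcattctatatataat
mt-Co1: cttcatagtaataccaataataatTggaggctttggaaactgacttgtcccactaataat
copy of mt-Co1: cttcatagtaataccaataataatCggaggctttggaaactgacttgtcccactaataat
mt-Cytb: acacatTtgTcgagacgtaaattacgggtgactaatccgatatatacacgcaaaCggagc
copy of mt-Cytb: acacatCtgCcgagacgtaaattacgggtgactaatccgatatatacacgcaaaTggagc

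Genes of the mitochondrial genome also overlap each other, so that a read there lies in both. How such a read was counted is not given in the sources used here. The longest overlap, of 43 bases, joins mt-Atp8 and mt-Atp6, which share one mRNA. It is shown here with its flanks (GRCm39, chrM:7915-7981, plus strand), in capitals where both genes are annotated.
mt-Atp8 and mt-Atp6: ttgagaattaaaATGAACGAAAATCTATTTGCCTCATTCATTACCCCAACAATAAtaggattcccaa

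By level, the mRNA genes formed sets that lay far apart. The 7 that are not wholly inside a near-identical nuclear copy lay between 317 and 11675 FPKM over the 10 libraries. The 6 that are wholly inside the chromosome 1 copy, which are mt-Co2, mt-Atp8, mt-Atp6, mt-Co3, mt-Nd3 and mt-Nd4l, lay between 1.22 and 75.3 FPKM. mt-Nd4l and mt-Nd4 lie side by side and overlap by 7 bases, yet they stood at 2.05 ± 0.634 and 954.4 ± 59.3 FPKM in WT (SD, n = 5). mt-Atp8 and mt-Atp6, from one mRNA, stood at 4.14 ± 1.02 and 11 ± 0.728 FPKM. All 6 genes are encoded between mt-Co1 and mt-Nd4, and the part of mt-Co1 inside the copy was 31.3% and that of mt-Nd4 65.8%. How reads with more than one match were counted is not given in the sources used here, and the part this has in the low values was not tested.

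**Figure D1:**
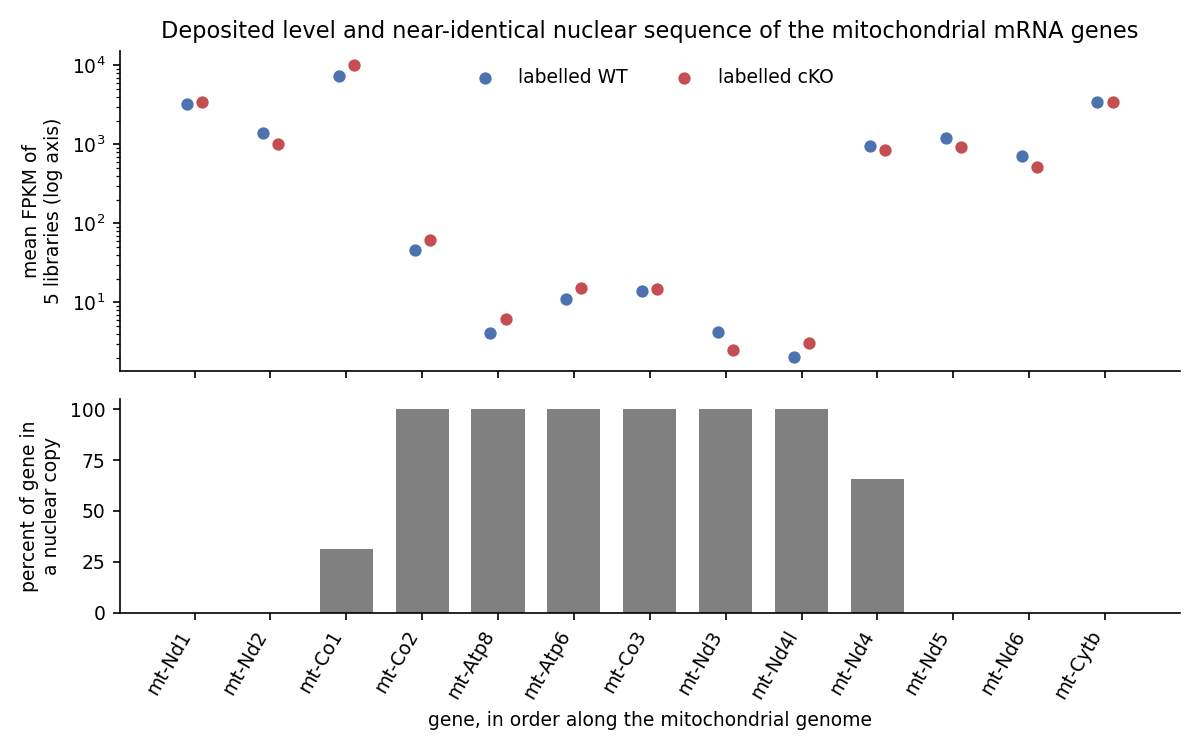
The upper panel plots the mean FPKM of the 5 libraries of each label on a log axis for the 13 mRNA genes, and the lower panel the percent of each gene that lies inside a nuclear copy of at least 99% identity. The 6 genes at 100% are the 6 lowest in both groups, with means of 2.05 to 62.3 FPKM, and the others had means of 515.3 to 9981 FPKM.

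Among the 7 mRNAs not wholly inside a copy the order in WT was mt-Co1 (7399 ± 332.9 FPKM), mt-Cytb (3451 ± 224.3), mt-Nd1 (3273 ± 163.3), mt-Nd2 (1392 ± 74.8), mt-Nd5 (1197 ± 71.8), mt-Nd4 (954.4 ± 59.3) and mt-Nd6 (704.7 ± 77.4). Since mt-Co1 lies 31.3% and mt-Nd4 65.8% inside the copy, their FPKM, and the place of mt-Nd4, may be too low. This was not tested. The values of mt-Cytb and mt-Nd1 overlapped over the libraries, and those of the other neighbours did not, except that mt-Nd5 reached 1294 FPKM, above the lowest value of mt-Nd2 (1282 FPKM). In cKO mt-Nd1 (3478 ± 368.6) and mt-Cytb (3422 ± 286.3) again overlapped, as did mt-Nd2 (1020 ± 125.8), mt-Nd5 (927.5 ± 244.5) and mt-Nd4 (847.2 ± 58.3). mt-Co1 was the gene with the highest FPKM of all genes in every library. The 2 rRNA genes stood below all 7, at 389.8 ± 69.5 FPKM for mt-Rnr1 and 249.1 ± 64.9 for mt-Rnr2 in WT. How the libraries were prepared with regard to rRNA or poly(A) tails is not given in the sources used here, so the rRNA values are not levels in the cell.

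**Figure D2:**
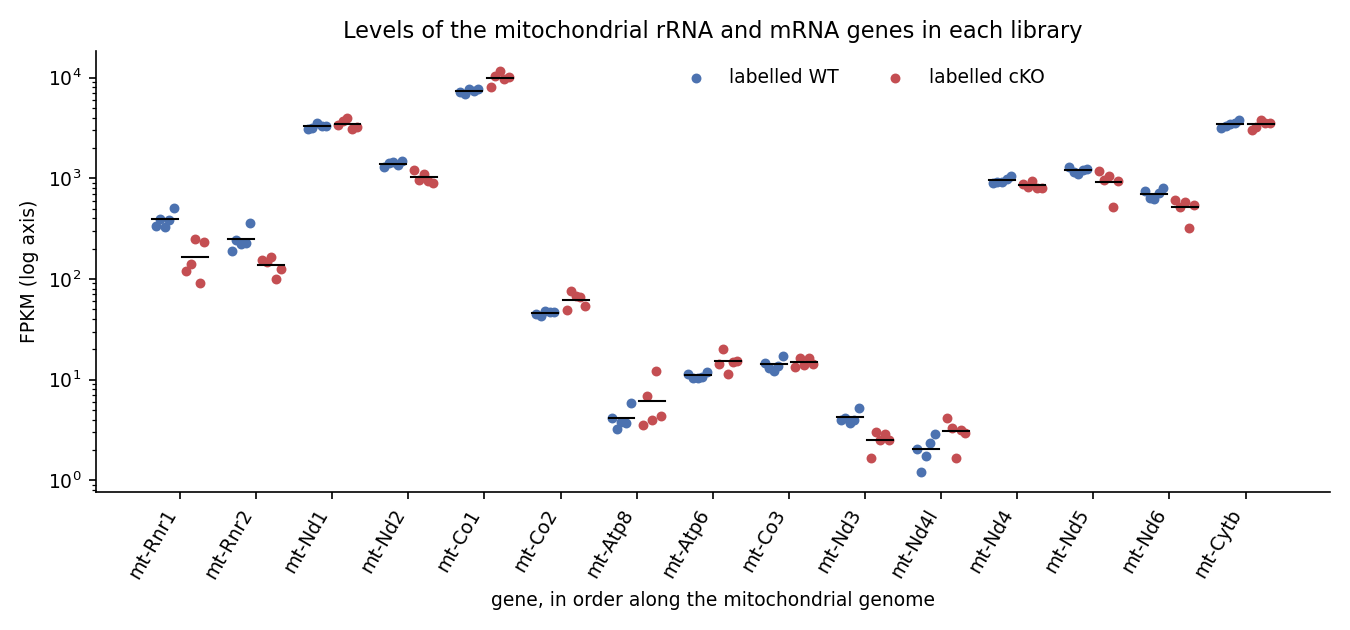
Each point is the FPKM of one library on a log axis, for the 2 rRNA and 13 mRNA genes in their order along the mitochondrial genome, and black lines are group means. The points of the groups lie apart for mt-Rnr1, mt-Rnr2, mt-Nd2 and mt-Nd3 (cKO lower), for mt-Nd6 (cKO lower) and for mt-Co1 and mt-Co2 (cKO higher).

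Both rRNAs were lower in the libraries labelled cKO. mt-Rnr1, the RNA of the small ribosomal subunit, was at 336, 394, 329, 387 and 503 FPKM in WT 1 to 5 and at 120, 140.5, 249, 90.8 and 230.2 in cKO 1 to 5. No cKO library reached the lowest WT library, and the cKO libraries themselves differed from 90.8 to 249 FPKM. The difference was -1.32 on the log2(FPKM + 0.1) scale (SE 0.26, adjusted p = 0.00198 by limma with Benjamini-Hochberg adjustment over 18742 genes). This scale is used for every difference below. mt-Rnr2, the RNA of the large subunit, was at 191, 242, 223, 229.5 and 360.1 FPKM in WT and at 153, 149, 164, 98.6 and 124 in cKO. Again the groups did not overlap, although WT 1 and cKO 3 lay only 191 against 164 FPKM apart. Its difference was -0.84 (SE 0.179, limma adjusted p = 0.00299). Of all genes tested, 28.3% were called lower by adjusted p alone and 16.8% also by a fold of at least 2, a limit that mt-Rnr1 passed and mt-Rnr2 did not. All 5 cKO libraries lay below all 5 WT libraries for 21.6% of genes, and for both rRNA genes.

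As a share of all fragments the rRNA genes took 0.0766 ± 0.0167% in WT and 0.0377 ± 0.00928% in cKO (SD, n = 5), and the groups did not overlap. mt-Nd1 lies downstream of both rRNA genes on the same strand. Relative to mt-Nd1, mt-Rnr1 fell from a ratio of 0.119 ± 0.0215 to 0.0473 ± 0.0182 and mt-Rnr2 from 0.0761 ± 0.0191 to 0.0394 ± 0.00473. These ratios do not depend on the library total, and the groups did not overlap in either. The ratio of mt-Rnr1 to mt-Rnr2 overlapped between groups, at 1.40 to 1.77 in WT and 0.784 to 1.86 in cKO. With a covariate for Xist above 1 FPKM the difference of mt-Rnr2 was -0.66 and no longer passed the test (limma adjusted p = 0.0536), while that of mt-Rnr1 stayed past it under all alternatives run.

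Of the 22 tRNA genes, 20 were listed at 0 in all 10 libraries. These genes are 59 to 75 bases long, shorter than the reads of 150 bases, and 3 fragments, taken here as the limit that a count of 0 allows, would put a gene of 67 bases at 2.39 to 3.24 FPKM depending on the library. mt-Tc was at 0.91 FPKM in WT 2, at 0.98 in WT 3 and at 1.09 in cKO 1, each worth 1 fragment, and at 0 in the other 7 libraries. It passed the filter on low values through these single fragments (-0.64, SE 0.966, limma adjusted p = 0.623). The exception was mt-Tp, the tRNA of proline, encoded on the light strand beside the control region, which holds no annotated gene. Its sequence (GRCm39, chrM:15356-15422, minus strand) is given with that of its neighbour mt-Tt, the tRNA of threonine (chrM:15289-15355, plus strand), which has the same length and was listed at 0.
mt-Tp: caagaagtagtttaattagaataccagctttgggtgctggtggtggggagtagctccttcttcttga
mt-Tt: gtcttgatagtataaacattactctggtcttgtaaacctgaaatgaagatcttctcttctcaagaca

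mt-Tp was at 766, 599, 689, 656.5 and 662 FPKM in WT 1 to 5 and at 852, 574, 572, 386 and 489 in cKO 1 to 5, or 386 to 855 fragments. The highest and the lowest value were both of libraries labelled cKO, and the groups overlapped. Its difference was -0.28 (SE 0.175, limma adjusted p = 0.224), and leaving out 1 library moved it either way, to -0.43 without cKO 1 (adjusted p = 0.0168) and to -0.14 without cKO 4 (adjusted p = 0.466). Whether the library kept the strand is not given in the sources used here, so these fragments cannot be told apart from RNA of the other strand. The gene is shorter than the reads, so they cannot be told apart from longer RNA that runs across it either. Its FPKM is therefore not a level of the cut tRNA. By limma, 0 tRNA genes were called in either direction, and 0 at an unadjusted p under 0.05.

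The mRNA genes did not move as one. Of the 13, all of which were tested, 3 rose (mt-Co1, mt-Co2 and mt-Atp6), 3 fell (mt-Nd2, mt-Nd3 and mt-Nd6) and 7 did not pass the test. Of those called, mt-Co2, mt-Atp6 and mt-Nd3 lie wholly inside the nuclear copy, so their reads cannot be told apart from those of the copy. The share called higher, 23.1%, stands against 16.7% of all genes tested, and the share called lower, also 23.1%, against 28.3%. None changed by 2-fold or more, where 4.60% of all genes were called higher and 16.8% lower. The cKO libraries all lay above WT for 2 mRNA genes (15.4%, against 10.6% of all genes) and all below for 3 (23.1%, against 21.6%). These counts are close to those of all genes. The median difference of the 13 was 0.08, beside -0.11 over all genes tested. Under quantile normalization these medians were -0.08 and 0.08, so the direction of the group depends on the scaling, and 24.6% of all genes were then called higher and 21.6% lower.

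**Figure D3:**
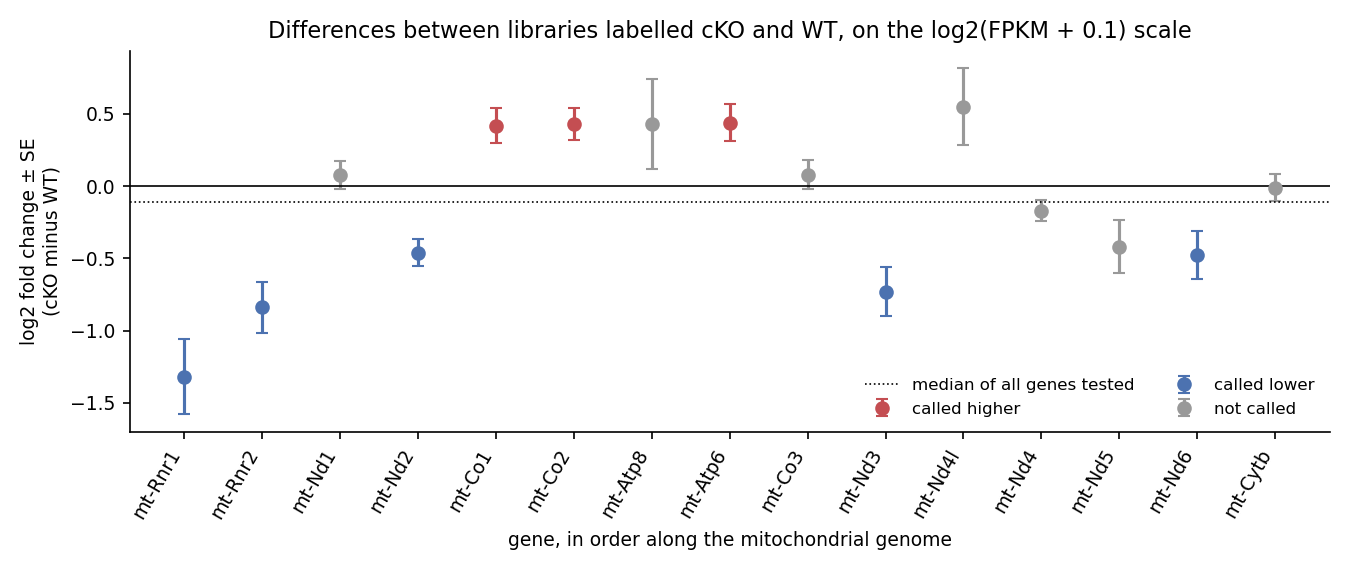
Points are the log2 differences (cKO minus WT, on the log2(FPKM + 0.1) scale) with their standard errors for the 2 rRNA and 13 mRNA genes in genome order, coloured by the limma call at an adjusted p under 0.05, and the dotted line is the median of all genes tested (-0.11). The rRNAs lie at -1.32 and -0.84, and the mRNAs spread from -0.73 (mt-Nd3) to 0.55 (mt-Nd4l).

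Of the subunits of complex IV, cytochrome c oxidase, 2 of 3 were called higher, beside 16.7% of all genes tested. Of these subunits, mt-Co2 and mt-Co3 lie wholly inside the nuclear copy and mt-Co1 in part. mt-Co1, the subunit that holds the oxygen-binding site, was at 7234, 6930.4, 7769, 7421 and 7641 FPKM in WT 1 to 5 and at 8144, 10251, 11675, 9716.5 and 10118 in cKO 1 to 5. Every cKO library was above every WT library, and cKO 1 was the nearest to them. The difference was 0.42 (SE 0.121, limma adjusted p = 0.0147). Since mt-Co1 ranked first in every library, quantile normalization gives it one value by construction (-0.00). It also missed the threshold with no filter on low values (0.42, adjusted p = 0.0696) and with the Xist covariate (0.49, adjusted p = 0.0504).

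mt-Co2, the subunit that receives electrons from cytochrome c, was at 44.6, 42.7, 47.5, 46.6 and 47.3 FPKM in WT and at 48.8, 75.3, 67.8, 65.7 and 54.2 in cKO. The groups did not overlap, but cKO 1 lay within 2 FPKM of the highest WT library. The difference was 0.43 (SE 0.109, limma adjusted p = 0.00795) and stayed past the threshold under all alternatives run. mt-Co2 lies wholly inside the nuclear copy, and no alternative changed how reads were assigned between them. mt-Co3, a core subunit without metal centres, was at 12.1 to 17.1 FPKM in WT and 13.5 to 16.5 in cKO, with a difference of 0.08 (SE 0.102, adjusted p = 0.534).

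Complex V, the ATP synthase, has 2 subunits encoded here. Both genes lie wholly inside the nuclear copy, so their reads cannot be told apart from those of the copy. mt-Atp6, part of the proton channel, was at 11.5, 10.4, 10.3, 10.6 and 12.01 FPKM in WT and at 14.2, 20.3, 11.4, 14.8 and 15.1 in cKO. Only cKO 3 overlapped with the WT libraries. The difference was 0.44 (SE 0.13, limma adjusted p = 0.0164), and 0.45 with the Xist covariate, where it missed the threshold (adjusted p = 0.087). mt-Atp8, a small subunit of the stalk region, rested on 10 to 37 fragments per library and differed by 0.43 (SE 0.312, adjusted p = 0.288), with 3.25 to 5.87 FPKM in WT and 3.54 to 12.2 in cKO. The highest value was of cKO 4, and without that library the difference was 0.15 (adjusted p = 0.622).

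Complex I, NADH dehydrogenase, has 7 subunits encoded in the mitochondrial genome, out of its 13 mRNAs, and the 3 mRNAs that fell were all among them. Of all genes tested, 28.3% were called lower. mt-Nd2, a subunit of the membrane arm, was at 1282, 1410.2, 1442, 1354 and 1470 FPKM in WT 1 to 5 and at 1195, 957, 1108, 936 and 903 in cKO 1 to 5. The groups did not overlap, and cKO 1 was again the nearest to WT. The difference was -0.46 (SE 0.0922, limma adjusted p = 0.00229), and it stayed past the threshold under all alternatives run. mt-Nd1, its neighbour upstream apart from 3 tRNA genes, differed by 0.08 (SE 0.0968, adjusted p = 0.52), so the ratio of mt-Nd2 to mt-Nd1 was 0.425 ± 0.018 in WT and 0.294 ± 0.036 in cKO, with no overlap. mt-Nd2 has no nuclear copy of at least 99% identity, its nearest match being at 97.9%.

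mt-Nd3, another membrane arm subunit, was at 3.97, 4.16, 3.72, 3.99 and 5.16 FPKM in WT and at 1.66, 3.01, 2.51, 2.89 and 2.53 in cKO. Counted as fragments these were 20 to 27 per library in WT and 8 to 18 in cKO, with no overlap on either scale. The difference was -0.73 (SE 0.168, limma adjusted p = 0.00458), which dropped to -0.32 under quantile normalization and missed the threshold there (adjusted p = 0.166). At so few fragments, and wholly inside the nuclear copy, it is the least firmly measured of the mRNAs that were called.

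mt-Nd6, the single mRNA of the light strand, was at 751, 636, 617, 719 and 800.1 FPKM in WT and at 607, 521, 585, 317 and 546 in cKO. The groups did not overlap, but WT 3 and cKO 1 were 617 against 607 FPKM, and cKO 4 lay below all others. The difference was -0.48 (SE 0.166, limma adjusted p = 0.0354). It missed the threshold under 8 of 21 alternatives, with adjusted p of up to 0.158. Leaving out 1 library did so 4 times, with -0.46 without WT 1 (adjusted p = 0.073), -0.47 without WT 4 (0.0687), -0.43 without WT 5 (0.0816) and -0.49 without cKO 2 (0.0584). Without cKO 4 it was smaller, at -0.31, and passed the test (adjusted p = 0.0211).

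mt-Nd5 lies opposite mt-Nd6 and overlaps its end by 14 bases. It was at 1294, 1152, 1107, 1201 and 1232 FPKM in WT and at 1175, 955, 1044, 523 and 939.9 in cKO, with cKO 4 again the lowest. Its difference of -0.42 (SE 0.185, limma adjusted p = 0.0897) did not pass the test. It was -0.51 without cKO 1, where it passed (adjusted p = 0.0408), and -0.22 without cKO 4, where it did not (adjusted p = 0.0633). The ratio of mt-Nd6 to mt-Nd5 lay between 0.517 and 0.649 over the 10 libraries and overlapped between groups, at 0.588 ± 0.0394 in WT and 0.562 ± 0.0338 in cKO. Without knowledge of the strand, reads of mt-Nd6 cannot be told apart from heavy-strand RNA of the same stretch.

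Of the other complex I subunits, mt-Nd4 was at 902 to 1048 FPKM in WT and 799 to 933 in cKO. Its difference was -0.17 (SE 0.0727, limma adjusted p = 0.0756), and -0.21 without cKO 3 (adjusted p = 0.0368). mt-Nd4l, at 6 to 17 fragments per library, differed by 0.55 (SE 0.268, adjusted p = 0.116) and by 0.75 without cKO 3 (adjusted p = 0.0265). mt-Cytb, the one subunit of complex III in this genome, was at 3190.3 to 3790.5 FPKM in WT and 3030.0 to 3769 in cKO, with a difference of -0.01 (SE 0.0936, adjusted p = 0.918).

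The chromosome 1 copy holds 7 annotated genes. Of these, the copies of the 2 mitochondrial genes that lie only partly inside it stood far below them, with Gm29216 at 7.0 FPKM in WT beside 7399 for mt-Co1 and Gm28439 at 4.27 beside 954.4 for mt-Nd4, both chosen after their values were seen. Gm28661, the copy of mt-Co2, was at 28.0 ± 2.48 FPKM in WT and 37.5 ± 5.78 in cKO (0.41, SE 0.111, limma adjusted p = 0.0113). Atp6-ps, the copy of mt-Atp6, was at 23.6 ± 1.43 and 33.3 ± 4.79 FPKM, with no overlap (0.49, SE 0.0926, adjusted p = 0.00154). Both rose, as their mitochondrial namesakes did. The ratio of mt-Co2 to Gm28661 was 1.64 ± 0.0789 in WT and 1.67 ± 0.17 in cKO, and that of mt-Atp6 to Atp6-ps was 0.467 ± 0.0424 and 0.455 ± 0.0574. Within each pair the ratio therefore moved by less than its spread between libraries, and the reads of a pair cannot be told apart. Gm28437, the copy of mt-Co3, was at 12.3 ± 1.30 and 11.6 ± 2.12 FPKM (-0.09, SE 0.127, adjusted p = 0.611). The copy of mt-Nd3, Gm28438, named after its values were seen, was at 3.85 ± 0.947 and 2.40 ± 1.19 FPKM (-0.77, SE 0.356, adjusted p = 0.1). In the same stretch, the ratio of mt-Co2 to mt-Co1, which is mostly outside the copy, was 0.00618 ± 6.55e-05 in WT and 0.00625 ± 0.000794 in cKO.

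The mRNA signal shifted towards mt-Co1. Of the summed FPKM of the 13 mRNA genes it held 40.6, 39.3, 41.2, 40.0 and 39.4% in WT 1 to 5 and 44.0, 49.8, 50.3, 51.1 and 50.2% in cKO 1 to 5. The groups did not overlap, and the WT libraries lay within 2 percentage points of each other. The means were 40.1 ± 0.778% and 49.1 ± 2.89% (SD, n = 5). In turn mt-Nd2 fell from 7.54 ± 0.318% to 5.06 ± 0.799% and mt-Nd4 from 5.17 ± 0.207% to 4.19 ± 0.328%, without overlap, and the shares of mt-Nd5 (6.50 ± 0.498% and 4.58 ± 1.27%), mt-Nd6 (3.82 ± 0.388% and 2.54 ± 0.578%) and mt-Cytb (18.7 ± 0.677% and 16.9 ± 1.14%) overlapped between groups. mt-Nd1 kept 17.7 ± 0.585% and 17.1 ± 1.03%. Against mt-Cytb, which did not pass the test, mt-Co1 had a ratio of 2.02 to 2.27 in WT and 2.69 to 3.16 in cKO. Ratios and shares within a library do not depend on its scaling, and, being scores over the genes studied, they were not tested. They are shares of the deposited values, in which 6 genes lie wholly inside the nuclear copy and mt-Co1 and mt-Nd4 in part. Of the summed FPKM of the other 7 alone, mt-Co1 held 40.3 ± 0.779% in WT and 49.3 ± 2.92% in cKO.

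**Figure D4:**
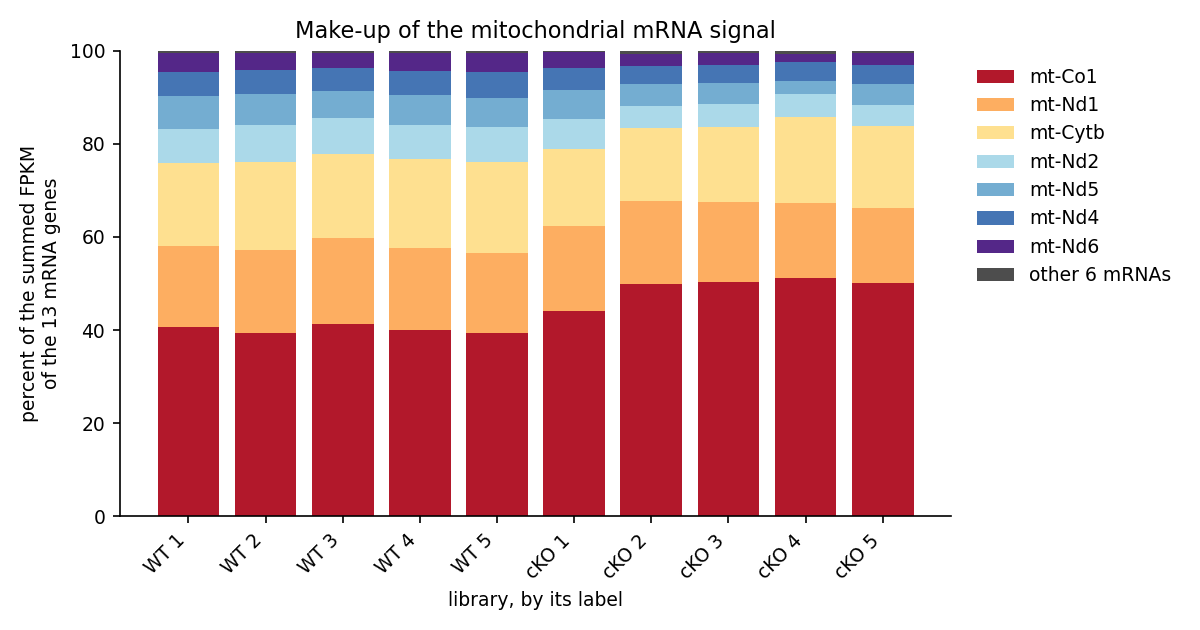
Stacked bars give the percent of the summed FPKM of the 13 mRNA genes held by each gene in each library, with the 6 genes inside the nuclear copy drawn as one. mt-Co1 held 39.3 to 41.2% in the libraries labelled WT and 44.0 to 51.1% in those labelled cKO, cKO 1 being the lowest of these.

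As a share of all fragments the 13 mRNA genes took 2.28 to 2.50% in WT (2.39 ± 0.0915%) and 2.43 to 3.09% in cKO (2.69 ± 0.253%), with overlap. Without mt-Co1 the shares were 1.24 ± 0.0484% and 1.15 ± 0.0936%, in the opposite order. mt-Nd6 stood above the mean of the 12 heavy-strand mRNAs by 2.40 ± 0.0912 in WT and 1.86 ± 0.432 in cKO on the log2 scale, without overlap. The 6 low genes wholly inside the nuclear copy pull that mean down, so the sign of these values rests on them. Among the 7 mRNAs not wholly inside it, mt-Nd6 had the lowest mean in both groups (704.7 FPKM in WT, 515.3 in cKO). The group difference of -0.537 was -0.28 when heavy-strand genes with near-identical nuclear copies were left out, and -0.358 without cKO 4.

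Nuclear genes that serve the mitochondrial genome were called higher more often than lower in most of the lists examined, against 16.7% and 28.3% of all genes. Where 0 genes of a list are given as lower by limma, 0 were lower at an unadjusted p under 0.05 too, except for 1 in complex III. Of 9 tested genes of mitochondrial RNA processing, 6 were higher and 0 lower, with a median difference of 0.41 beside -0.11 over all genes. Elac2, which cuts the 3′ ends of tRNAs, rose from 19.2 ± 3.43 to 33.6 ± 5.18 FPKM (0.80, limma adjusted p = 0.00093). Trnt1, which adds the CCA end to tRNAs, rose from 22.2 ± 2.06 to 33.8 ± 2.73 FPKM (0.60, adjusted p = 0.000232). Angel2, a phosphatase that acts on the ends of cut RNA, rose from 17.6 ± 0.344 to 23.6 ± 3 FPKM (0.41, adjusted p = 0.00361). Elac2 and Trnt1 act on nuclear-encoded tRNAs too.

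Of 13 genes of mitochondrial RNA stability and decay, 9 were higher and 0 lower, with a median of 0.35. Rexo2, which degrades short RNA pieces, rose from 34.9 ± 4.84 to 71.3 ± 10.4 FPKM (1.02, limma adjusted p = 0.000158) and was the only one of them to reach 2-fold. Supv3l1, the helicase of the mitochondrial RNA degradosome, rose from 15.5 ± 2.90 to 27.3 ± 4.55 FPKM (0.82, adjusted p = 0.00119), and Tbrg4, a protein of the FASTK family that stabilises certain mitochondrial mRNAs, from 27.7 ± 4.68 to 44.7 ± 3.84 (0.70, adjusted p = 0.00062). Lrpprc, which with Slirp protects most mitochondrial mRNAs, rose from 18.6 ± 1.96 to 26.1 ± 3.08 FPKM (0.49, adjusted p = 0.0025), and Slirp was at 8.97 ± 0.599 and 11.1 ± 1.79 (0.29, adjusted p = 0.0577).

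Of 10 genes of mitochondrial transcription, 3 were higher and 0 lower (median 0.18). The polymerase Polrmt was at 7.47 ± 0.947 and 7.01 ± 1.27 FPKM (-0.10, limma adjusted p = 0.605), and the initiation factors Tfam (17.1 ± 1.52 and 19.6 ± 1.97, adjusted p = 0.0991) and Tfb2m (9.34 ± 0.267 and 10.6 ± 0.958, adjusted p = 0.0733) did not pass the test. Those that rose were the elongation factor Tefm (0.65, adjusted p = 0.00772), Mrpl12 (0.55, adjusted p = 0.00983), a ribosomal protein that also binds the polymerase, and Mterf3 (0.24, adjusted p = 0.0266), known as a repressor of mitochondrial transcription. Of 20 genes of mitochondrial DNA replication and nucleotide supply, 2 were higher and 5 lower (median 0.00). Both counts lie below the shares of all genes, 16.7% and 28.3%. Those called lower included the nuclease Exog (-0.69, limma adjusted p = 0.00538) and Dguok, which makes purine nucleotides for mitochondrial DNA (-0.51, adjusted p = 0.005).

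Of 25 genes of rRNA and tRNA modification, 8 were higher and 1 lower (median 0.22). Trmu, which modifies the wobble base of some mitochondrial tRNAs, rose from 4.24 ± 0.259 to 7.12 ± 0.262 FPKM (0.73, limma adjusted p = 9.56e-05), and Mettl8, which methylates tRNAs of threonine and serine in mitochondria, fell from 9.38 ± 0.431 to 5.21 ± 1.14 (-0.86, adjusted p = 0.00052). Nsun2, a tRNA methyltransferase that also works outside mitochondria, rose by 0.75 (adjusted p = 0.000245). Of 9 tested nuclear regulators of mitochondrial genes, Pprc1 was higher (0.33, adjusted p = 0.0147) and Yy1 lower (-0.29, adjusted p = 0.00255), with 7 not called (median 0.03). For these regulators too, both counts lie below the shares of all genes, 16.7% and 28.3%.

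The nuclear-encoded partners of the mitochondrial subunits were mostly higher or not called. Of 37 subunits of complex I, 20 were higher and 1 lower (median 0.27). The same held for 7 and 0 of 9 in complex III (0.35), 4 and 0 of 11 in complex IV (0.18) and 8 and 0 of 17 in complex V (0.26), and for 1 and 0 of 4 in complex II (0.10), which has no subunit in the mitochondrial genome. Ndufa10 rose from 43.3 ± 2.04 to 66.1 ± 4.60 FPKM (0.61, limma adjusted p = 7.42e-05), Uqcrc2 from 83.7 ± 6.36 to 120.0 ± 9.34 (0.52, adjusted p = 0.000289), Cox5b from 103.8 ± 3.89 to 152.5 ± 20.2 (0.55, adjusted p = 0.000484) and Atp5f1b from 308.0 ± 22.6 to 434.9 ± 31.1 (0.50, adjusted p = 0.000362). Ndufb2 was the only subunit of the 5 complexes called lower, with 2 such subunits when cKO 1 was left out, and fell from 7.16 ± 0.473 to 2.78 ± 1.14 FPKM (-1.41, adjusted p = 0.00039). Ndufa12 had the highest rise, from 13.5 ± 3.37 to 33.4 ± 11.9 (1.24, adjusted p = 0.0044).

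**Figure D5:**
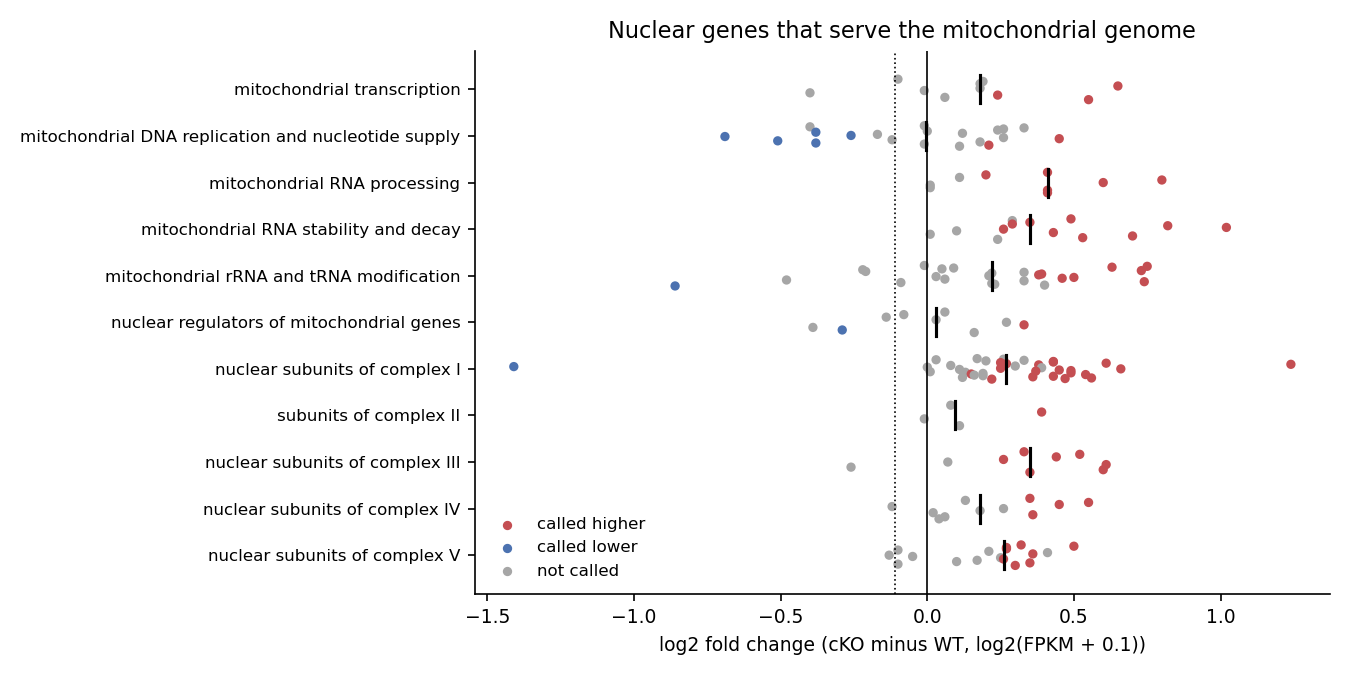
Each point is the log2 difference (cKO minus WT) of one nuclear gene, grouped by role, coloured red where called higher, blue where called lower and grey where not called, with the median of each list as a black bar and that of all genes tested (-0.11) as a dotted line. The medians of the lists lie between 0.00 (DNA replication) and 0.41 (RNA processing).

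Over the 6 lists of genes that maintain, transcribe and process the mitochondrial genome, 29 were called higher and 7 lower, which became 46 and 3 under quantile normalization and 17 and 4 with the Xist covariate. The shares of all genes called moved the same way, from 16.7% higher and 28.3% lower to 24.6% and 21.6% under quantile normalization and to 10.9% and 21.5% with the Xist covariate. The erythroid markers moved in the same direction in the same libraries (1995 to 3538 FPKM in WT, 5495 to 9015 in cKO), and their part in these counts was not tested.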

How the data were processed

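RNA of Lin- bone marrow cells was sequenced in 10 libraries, 5 per genotype. The authors used HISAT2 to align trimmed reads to GRCm39, and the values they deposited are FPKM of each gene, rounded to 2 decimals. The submitters' processing notes name cutadapt 1.9.1, HISAT2 2.0.1 and HTSeq 0.6.1. The counting mode, strand and treatment of multiple matches are not given in the sources used here. Depth was recovered from single-transcript genes, where 96.6 to 97.3% of low values were whole fragments within 0.2. Fragment numbers bear on counting error only.

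Gene symbols, lengths and positions came from the GENCODE annotation of GRCm39, which held 54749 of the 55359 identifiers. Nuclear copies were found with BLAST 2.17.0 (mitochondrial genome against the nuclear chromosomes), and a copy of at least 99% identity was called near-identical. Differences were tested with limma 3.58.1 in R 4.3.3 (lmFit and eBayes with a trend, two-sided) on log2(FPKM + 0.1), which understates changes of low genes, with Benjamini-Hochberg adjustment over 18742 genes, those whose mean reached 0.1 FPKM. The call was an adjusted p under 0.05, alone or together with a change of 2-fold or more. All 10 libraries entered with no covariate. Shares of fragments were FPKM times gene length. The script was tested on simulated data. The labels give replicates as separate samples, and the study's methods say that n counts individual mice unless stated otherwise. The p-values are therefore taken to measure the spread between mice, although the labels do not say that each library came from a single mouse. By Xist and Ddx3y the WT libraries held both sexes and the cKO libraries males only, so sex differs between the groups.

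The members, the gene lists and the tests were chosen with earlier results of these data known. Named genes were all mitochondrial mRNA and rRNA genes, the tRNA genes above 0, Dhx9, Polrmt, Tfam, Tfb2m, Lrpprc and Slirp, up to 3 genes per list and direction with the largest change among called genes averaging 1 FPKM or more, and the highest nuclear copies. Not every gene so selected is named. Ahsp and Vpreb1 of the marker lists and Gm10925 and Gm10924 of a list of nuclear copies had no match, and Gm15772 of the latter lay in no near-identical copy. Of the 8 genes matched in that list, 1 was called higher and 0 lower. Alternatives were other pseudocounts, filters and scalings, no trend, a replicate block, a covariate for Xist above 1 FPKM and each library left out.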

Additional observations from a re-analysis of the deposited data

Results flagged for a closer look

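A single library stood far from the other 4 of its group in 8 of 140 groups of 5 values, where chance gives about 7.0. Of the mitochondrial measures, the share of the mRNA signal held by mt-Co1 was 44.0% in cKO 1 against 49.8 to 51.1% in the other cKO libraries, and mt-Tc was at 1.09 FPKM in cKO 1 against 0 in the others, a value of 1 fragment.

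Of the nuclear genes, cKO 1 stood apart for Rexo2 (53.3 FPKM, others 72 to 78.5), Sdhb of complex II (42.7 FPKM, others 55.8 to 57.1) and Ndufb2 (4.74 FPKM, others 1.99 to 2.78), each time on the side of the WT libraries. Among the WT libraries Polrmt was at 5.80 FPKM in WT 1 (others 7.60 to 8.03), Sucla2, a subunit of succinyl-CoA synthetase, at 18.5 FPKM in WT 2 (others 20.2 to 20.8) and Dguok at 6.78 FPKM in WT 5 (others 5.13 to 5.56).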

How the results depend on the processing

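The differences of mt-Rnr1, mt-Nd2 and mt-Co2 kept their direction and their side of the limma threshold under all 21 alternatives run for each. No alternative changed how reads were assigned between mt-Co2 and its nuclear copy. mRNA genes called higher numbered 3, but 1 with the Xist covariate, and 3 to 4 with 1 library left out. rRNA genes called lower numbered 2, but 1 with the Xist covariate, and 2 with any library left out. tRNA genes called lower numbered 0 to 1 with 1 library left out. Nuclear genes serving the mitochondrial genome that were called higher numbered 29, but 46 under quantile normalization and 17 with the Xist covariate (23 to 37 with 1 library left out), and those called lower 7, but 4 under median-ratio scaling, 3 under quantile normalization and 4 with the Xist covariate (5 to 9). Nuclear subunits of complexes I to V called lower numbered 1, and 2 under quantile normalization and without cKO 1 (1 to 2). The sign turned for mt-Nd1 (-0.08) under quantile normalization, and for mt-Cytb under median-ratio scaling (0.09), with the Xist covariate (0.06) and in some leave-one-out fits (-0.05 to 0.03). The cause was not tested. mt-Co1 has the top rank in every library, so quantile normalization gives it the same value in each. Its difference there (-0.00) is fixed by construction and is not a turn of sign. A replicate block left the counts at 3 mRNA genes higher, 3 lower and 2 rRNA genes lower, and with it 43 nuclear subunits were called higher and 1 lower, against 40 and 1 without it. The deviations of same-numbered libraries correlated at 0.117, 0.0258, -0.0103, -0.00304 and 0.0929, and the numbers 1, 2 and 5 correlated best with their own, a hint from the data only. For mt-Nd6 over the heavy-strand mRNAs, summed fragments gave -0.658 and the libraries with Xist at or under 1 FPKM gave -0.59, and for the mt-Co1 share the latter gave 9.13 percentage points. These 3 were chosen after seeing the data. Among the libraries labelled WT, those by Xist rest on WT 1 and WT 2 alone. At 6 to 37 fragments per library, counting error limits mt-Nd4l, mt-Nd3 and mt-Atp8.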
